A study of Mus musculus with 30 samples.

Results

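The FGF signalling genes described here are all genes with an Fgf symbol, which code for the ligands and their intracellular relatives, the receptors Fgfr1 to Fgfr4, the decoy receptor Fgfrl1, and the feedback inhibitors of the Sprouty (Spry) and Spred families. They were picked out by symbol alone, though earlier results of these data were known when the set was chosen. Of 20889 genes in the table, 33 matched: 15 paracrine ligands, 3 endocrine ligands, 4 intracellular homologous factors, 4 receptors, 1 decoy receptor, 3 Sprouty genes and 3 Spred genes.

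Testes of C57BL/6 mice aged 0, 7, 12 and 14 days after birth (P0, P7, P12 and P14) were the source of the cells, all labelled as spermatogonia, and their RNA was sequenced. Magnetic beads against THY1, a surface protein of undifferentiated spermatogonia that other testis cells also carry, gave the P0, P7, P12 and P14 THY1 groups. Beads against KIT, the receptor of differentiating spermatogonia, gave the P7, P12 and P14 KIT groups. Fluorescence sorting from reporter mice gave OCT4-GFP cells at P0 and P7 and ID4-GFP cells at P7, in which GFP marks early germ cells. A last group is labelled VASA THY1 at P7, while a VASA-GFP sort is described for P0 alone, so its age is uncertain and it was used as labelled. The sources used here do not say how many animals stood behind a library or how pure each preparation was. The deposited table has 1 column for each of these 11 groups. The P0, P7 and P12 THY1 columns and the P7 and P12 KIT columns stand for 2 libraries each, and the other 6 columns for 1 library each. With 1 value per gene and column, no difference below has a replicate check, no test between groups was possible, and every value describes these libraries alone.

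Fibroblast growth factors are secreted proteins that bind receptor tyrosine kinases together with heparan sulphate, and the activated receptors pass the signal through adaptor proteins to the RAS and ERK kinase cascade. Sprouty genes are switched on by that cascade, and Sprouty and Spred proteins restrain it. In the testis, FGF2 is a growth factor used to keep spermatogonial stem cells in culture, and FGF9 takes part in setting the male fate of the gonad.

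Promoter sequences are given for 4 of the genes that differed between KIT and THY1 cells. Spry1 and Spry2 were lower in the KIT column than in the THY1 column of each age, though not against P7 VASA THY1. Fgf11 and Fgfr3 were higher in KIT cells at P12 and P14. Spry4, also lower in KIT than in THY1 cells, had no window in the reference. Each is 300 bases, from 250 before the gene's start to 50 after it, from RefSeq on build GRCm38.p6, read along the gene's strand. Capitals mark a match to an ETS core (CCGGAA) in Spry2 and to an EGR site (GCGTGGGCG or GCGGGGGCG) in Fgfr3, both looked for on either strand as letters only. Spry1 lies at chr3:37639697-37639996 on the plus strand, Spry2 at chr14:105896770-105897069 on the minus strand, Fgf11 at chr11:69802231-69802530 on the minus strand, and the first of the Fgfr3 windows at chr5:33721474-33721773 on the plus strand.
Spry1: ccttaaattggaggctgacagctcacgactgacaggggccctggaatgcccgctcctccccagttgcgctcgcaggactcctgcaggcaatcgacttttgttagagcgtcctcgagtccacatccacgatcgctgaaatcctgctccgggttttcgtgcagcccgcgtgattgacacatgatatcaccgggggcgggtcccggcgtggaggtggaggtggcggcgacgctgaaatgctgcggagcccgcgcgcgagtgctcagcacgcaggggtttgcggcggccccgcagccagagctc
Spry2: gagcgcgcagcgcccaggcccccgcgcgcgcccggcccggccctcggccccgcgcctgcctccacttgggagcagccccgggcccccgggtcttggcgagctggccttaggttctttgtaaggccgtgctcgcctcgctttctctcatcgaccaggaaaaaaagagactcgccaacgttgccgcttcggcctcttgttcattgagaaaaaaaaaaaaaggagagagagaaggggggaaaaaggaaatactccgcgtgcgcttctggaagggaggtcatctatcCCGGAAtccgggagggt
Fgf11: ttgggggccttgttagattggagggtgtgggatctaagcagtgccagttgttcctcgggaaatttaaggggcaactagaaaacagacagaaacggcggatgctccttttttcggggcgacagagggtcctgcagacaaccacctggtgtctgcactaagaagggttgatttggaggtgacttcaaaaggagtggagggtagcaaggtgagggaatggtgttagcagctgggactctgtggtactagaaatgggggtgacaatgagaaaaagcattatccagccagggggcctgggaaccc
Fgfr3: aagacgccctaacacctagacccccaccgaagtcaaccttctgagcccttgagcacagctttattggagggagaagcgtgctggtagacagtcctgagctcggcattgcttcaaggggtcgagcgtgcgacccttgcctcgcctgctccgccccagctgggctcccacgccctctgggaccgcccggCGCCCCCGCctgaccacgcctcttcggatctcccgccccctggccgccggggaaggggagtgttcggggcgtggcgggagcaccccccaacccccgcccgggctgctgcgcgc

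The Spry1 window held 29 CpG dinucleotides, the Spry2 window 28 and the Fgfr3 window 26, while the Fgf11 window held 5. Over all 32817 windows of the reference the median was 7. The ETS core in Spry2 began 33 bases after the start, and such a core was found in 14.9% of all windows. A nuclear receptor motif (AGGTCA), not capitalized, began 21 bases after the Spry2 start, and 16.3% of all windows held one. The EGR match in Fgfr3, written there as its reverse complement, began 63 bases before the start, and 3.47% of all windows held one. A GC box (GGGCGG), the motif of SP factors, stood in the Spry1 window and at 4 places in the Fgfr3 window, none overlapping the capitals, and in 35.6% of all windows. These matches describe letters in these windows and were not measured as binding. Of the 33 genes 25 had a window. Counting 1 window for each, the median CpG count was 26 over 9 genes that reached 10 FPKM in a column, 13 over 12 genes with a highest value from 1 to under 10, and 11 over 4 genes below 1. Over the 14430 genes of the table with a window, counted in the same way, the median was 15.

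Levels are in FPKM, fragments counted per length of transcript and per mapped fragments of the library, so that genes can be set against each other on the FPKM scale. Differences between columns are of log2(FPKM + 1), so the change of a gene expressed near 0 comes out too small. A gene was counted as higher or lower where that difference was at least 1 in size, a 2-fold step. The share of all 20889 genes past the same step is printed beside each first count. Because these are bulk preparations, fewer cells of a type and less RNA per cell cannot be told apart.

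Germ cell markers were present in every column, with 6 genes summing to between 712 and 2264 FPKM and none at 0. Markers of other testis cells were present too. Summed over 10 markers of fibroblasts and stroma the level was 6953 FPKM in P0 THY1 and from 29.4 in P7 ID4-GFP to 1403 in P14 THY1 elsewhere. Summed over 8 myoid markers it was 1054 FPKM in P0 THY1 and from 7.76 in P7 ID4-GFP to 295 in P12 THY1 elsewhere. Macrophage markers, 8 genes, summed to 311 FPKM in P0 THY1, 292 in P0 OCT4-GFP and 200 in P7 OCT4-GFP, and to between 3.29 and 68.1 in the other columns. Of all these markers 1 was at 0 anywhere, the macrophage gene Aif1 in P7 ID4-GFP. The worth of 1 fragment relative to P14 THY1, read from genes below 0.05 FPKM, lay between 0.957 and 2.04, except for an uncertain 3.72 in P7 THY1. Low values there may rest on the fewest fragments.

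Of the 33 genes, 11 reached 10 FPKM in at least 1 column, 15 had a highest value from 1 to under 10 FPKM, and 7 stayed below 1 FPKM everywhere. The receptors, the decoy receptor and the feedback inhibitors made up 9 of the 11 in the highest class, with Fgf2 and Fgf11 as the others. Among the 26 genes that reached 1 FPKM, 14 had their highest value in P0 THY1, beside 25.1% of the 15458 genes of the table that reached 1 FPKM. Without the P0 THY1 column 20 of the members reached 1 FPKM, and the column that most often held the highest value was P7 THY1, with 7 of them, beside 9.08% of the 14673 genes of the table that reached 1 FPKM there. P14 THY1, the highest column for 17.6% of those genes, held the highest value of 0 members.

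**Figure D1:**
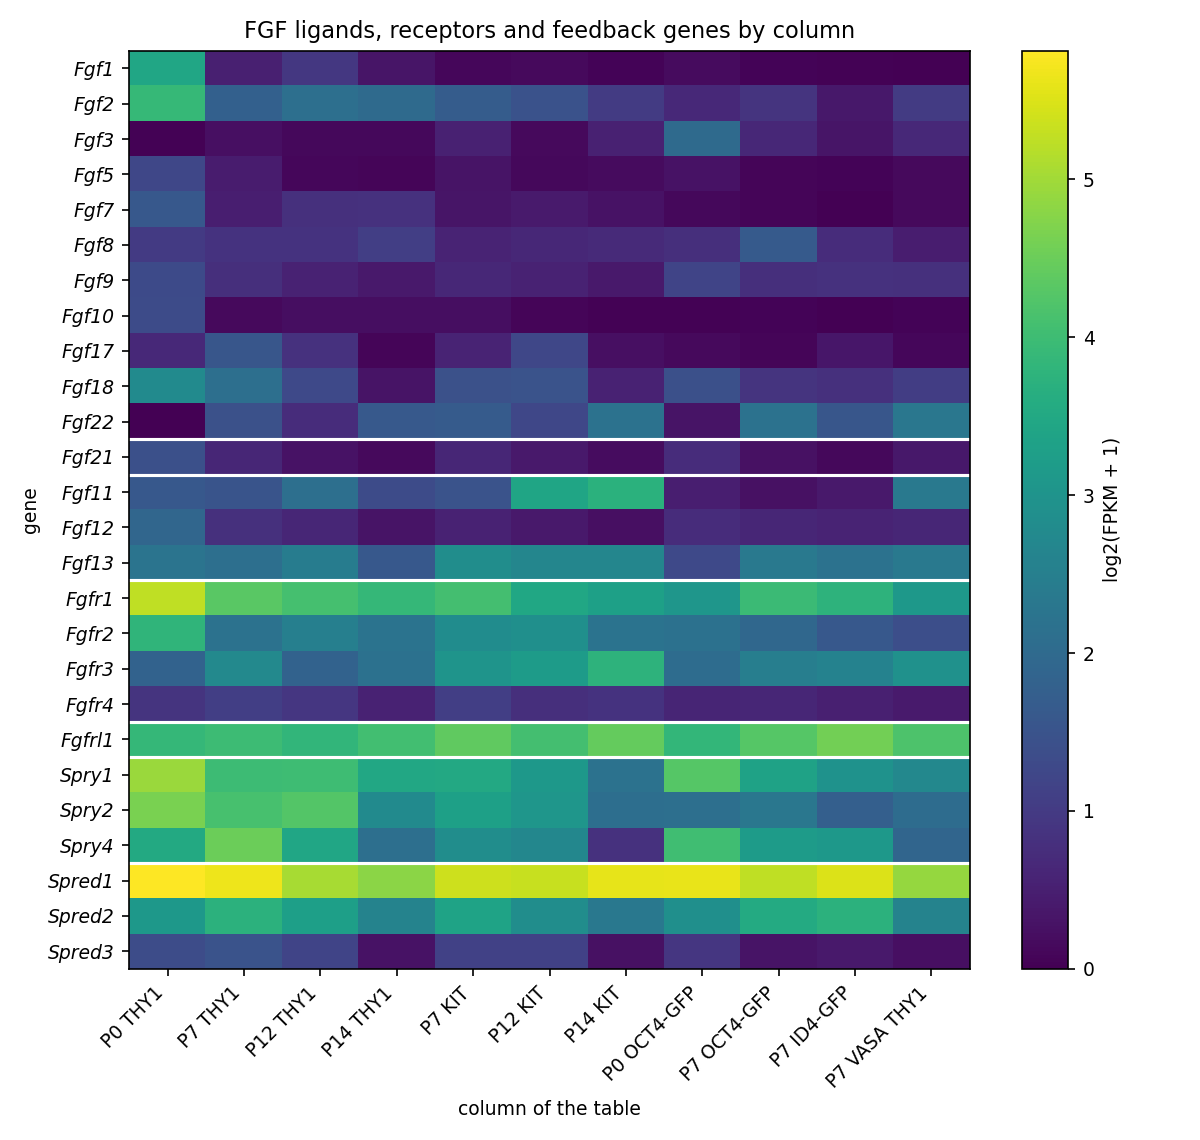
Level of the 26 FGF genes that reached 1 FPKM, as log2(FPKM + 1) by colour, with genes in rows grouped by role (white lines) and the 11 columns of the table along the horizontal axis. Spred1 is the brightest row, between 27.04 and 55.2 FPKM, and most ligand rows are brightest in P0 THY1.

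Among the paracrine ligands, Fgf2, the factor used to grow spermatogonial stem cells, reached the highest level. It was at 13.9 FPKM in P0 THY1, 2.46 in P7 THY1, 3.39 in P12 THY1, 3.01 in P14 THY1, 2.24 in P7 KIT, 1.77 in P12 KIT, 1.01 in P14 KIT, 0.595 in P0 OCT4-GFP, 0.844 in P7 OCT4-GFP, 0.304 in P7 ID4-GFP and 1.01 in P7 VASA THY1. The P0 THY1 value stood well above the rest, the other bead-enriched columns followed, and the 3 GFP-sorted columns held the lowest values. Every member that reached 5 FPKM was set against every marker list, and the pairs named for Fgf2 and Spry2 are among the closest. For Fgf2 the order of the columns followed that of the summed myoid markers, with a Spearman rho of 0.96 over 11 columns. Pearson r on the log2 scale was 0.95, and 0.90 without P0 THY1 and P7 ID4-GFP, the columns farthest from the middle of the sum. Stroma markers were nearly as close, with a rho of 0.89 and an r of 0.94. The columns share preparations and cell mixtures, and the part of the myoid and stroma cells in the result was not tested.

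Fgf1, which binds all FGF receptors, had a level of 9.80 FPKM in P0 THY1, next 0.916 in P12 THY1, a median of 0.106 and a lowest value of 0.00743 in P7 VASA THY1. Fgf18 was at 5.85 FPKM in P0 THY1 and 3.34 in P7 THY1, with a median of 1.45 and a lowest value of 0.234 in P14 THY1. The keratinocyte growth factor Fgf7, made by mesenchyme in many organs, was highest at 2.03 FPKM in P0 THY1, with a median of 0.251 and a lowest value of 0.0134 in P7 ID4-GFP. For Fgf10, a mesenchymal ligand of the FGFR2 form found in epithelia, P0 THY1 held 1.51 FPKM, the median was 0.0559, and P7 ID4-GFP held the lowest value, 0.0152. Fgf5 went from 0.0361 FPKM in P7 ID4-GFP through a median of 0.108 to 1.36 in P0 THY1. All 5 of these ligands were highest in P0 THY1, the column with the highest stroma and myoid marker sums. P14 THY1 had the next highest stroma sum, 1403 FPKM. There Fgf1 was at 0.257 FPKM, Fgf18 at 0.234, Fgf7 at 0.766, Fgf10 at 0.153 and Fgf5 at 0.0553. The part of the stroma and myoid cells was not tested.

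Fgf9, the ligand of early male gonad development, was highest in both P0 columns. It stood at 1.48 FPKM in P0 THY1 and 1.29 in P0 OCT4-GFP, with a median of 0.723 and a lowest value of 0.311 in P14 THY1. For Fgf9 the difference P0 OCT4-GFP minus P0 THY1 was -0.11 on the log2 scale. Stroma markers summed to 63.2 FPKM in P0 OCT4-GFP and 6953 in P0 THY1, and germ cell markers to 1570 and 712. The part of these cells in the Fgf9 level was not tested.

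A few ligands were highest outside P0 THY1. Fgf3 had 3.02 FPKM in P0 OCT4-GFP, next 0.584 in P7 VASA THY1, a median of 0.251 and its lowest value, 0.0190, in P0 THY1. Fgf8 was highest at 2.13 FPKM in P7 OCT4-GFP, with a median of 0.727 and a lowest value of 0.377 in P7 VASA THY1. Fgf17, of the same subfamily as Fgf8 and Fgf18, had 1.92 FPKM in P7 THY1, a median of 0.268 and a lowest value of 0.0635 in P7 OCT4-GFP. Fgf22 was listed at 0 in P0 THY1 and was highest in P7 VASA THY1, at 3.96 FPKM, with a median of 1.92. Both the P14 KIT and the P7 OCT4-GFP columns held 3.57 FPKM of Fgf22, against 0.228 in P0 OCT4-GFP, so that Fgf22 was lowest in the P0 columns, the reverse of the order seen for Fgf9.

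The remaining paracrine ligands were near the floor. Fgf4 ranged from 0 to 0.156 FPKM, Fgf6 from 0 to 0.117, Fgf16 from 0.00971 to 0.419 and Fgf20 from 0 to 0.142. In the reference order of genes Fgf3, Fgf4 and Fgf15 are adjacent, and of these 3 neighbours Fgf3 alone reached 1 FPKM. Fgf6 and the endocrine Fgf23 are adjacent as well, and both stayed below 1 FPKM in all columns.

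The endocrine ligands, hormones that need a Klotho co-receptor, were low. Fgf21, best known from liver and fat, was highest at 1.67 FPKM in P0 THY1, with a median of 0.297 and a lowest value of 0.0892 in P7 ID4-GFP. Fgf15, the bile acid hormone of the gut, ranged from 0 to 0.274 FPKM, and Fgf23, the phosphate hormone of bone, from 0 to 0.0805. The co-receptor genes Kl and Klb were at most 0.485 and 0.794 FPKM.

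The intracellular homologous factors share the FGF fold but are not secreted and bind voltage-gated sodium channels. Fgf11 was the member with the widest gap between KIT and THY1 cells. Its level was 2.01 FPKM in P0 THY1, 1.84 in P7 THY1, 3.38 in P12 THY1, 1.51 in P14 THY1, 1.80 in P7 KIT, 9.75 in P12 KIT, 12.1 in P14 KIT, 0.411 in P0 OCT4-GFP, 0.199 in P7 OCT4-GFP, 0.315 in P7 ID4-GFP and 4.13 in P7 VASA THY1. The P12 and P14 KIT columns were high, and the 3 GFP-sorted columns were the lowest.

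Fgf13 was detected above 1 FPKM in every column, from 1.45 in P0 OCT4-GFP through a median of 4.07 to 6.24 in P7 KIT. The 3 KIT columns, at 6.24, 5.34 and 5.35 FPKM, were the highest 3 of the 11. Fgf12 was highest at 2.75 FPKM in P0 THY1, with a median of 0.533 and a lowest value of 0.173 in P14 KIT. Fgf14 ranged from 0 to 0.494 FPKM.

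Fgfr1 was the most abundant of the 4 signalling receptors in 10 of the 11 columns, and Fgfr3 in the other, P14 KIT. Fgfr1 stood at 37.1 FPKM in P0 THY1, 19.0 in P7 THY1, 16.2 in P12 THY1, 13.7 in P14 THY1, 15.8 in P7 KIT, 10.1 in P12 KIT, 8.86 in P14 KIT, 7.35 in P0 OCT4-GFP, 14.7 in P7 OCT4-GFP, 12.5 in P7 ID4-GFP and 7.63 in P7 VASA THY1. Along both the THY1 and the KIT columns it was lower at each later age. In the OCT4-GFP columns the order was the reverse, with 7.35 FPKM at P0 and 14.7 at P7.

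Fgfr3 ran the other way in KIT cells. Its level was 2.56 FPKM in P0 THY1, 5.64 in P7 THY1, 2.55 in P12 THY1, 3.52 in P14 THY1, 7.08 in P7 KIT, 8.12 in P12 KIT, 12.6 in P14 KIT, 3.13 in P0 OCT4-GFP, 4.61 in P7 OCT4-GFP, 4.93 in P7 ID4-GFP and 6.72 in P7 VASA THY1. The 3 KIT columns held the highest 3 values, with P7 VASA THY1 next.

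As a share of the summed FPKM of Fgfr1 to Fgfr4, Fgfr3 made up 23.5% in P7 KIT, 32.1% in P12 KIT and 48.6% in P14 KIT. The same share in THY1 columns was 19.2% at P7, 10.5% at P12 and 16.5% at P14. Fgfr1 took 34.3% of the sum in P14 KIT and 64.3% in P14 THY1. In P7 VASA THY1 the shares of Fgfr1 and Fgfr3 were 46.7% and 41.2%, nearer to those of the KIT columns at P12 and P14 than to P7 THY1. The summed receptor level itself was alike in the P14 columns, 25.8 FPKM in KIT and 21.4 in THY1.

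Fgfr2, the receptor whose epithelial form binds FGF7 and FGF10, was at 13.1 FPKM in P0 THY1, 3.57 in P7 THY1, 4.70 in P12 THY1, 3.62 in P14 THY1, 6.09 in P7 KIT, 6.39 in P12 KIT, 3.61 in P14 KIT, 3.49 in P0 OCT4-GFP, 2.81 in P7 OCT4-GFP, 2.05 in P7 ID4-GFP and 1.64 in P7 VASA THY1. Its highest value was again in P0 THY1. Fgfr4 was the lowest of the receptors, from 0.337 FPKM in P7 VASA THY1 through a median of 0.712 to 1.11 in P7 THY1.

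Fgfrl1, which binds ligands but lacks the kinase domain, varied least of the receptors. It was at 13.6 FPKM in P0 THY1, 14.9 in P7 THY1, 13.3 in P12 THY1, 15.7 in P14 THY1, 19.9 in P7 KIT, 15.9 in P12 KIT, 20.7 in P14 KIT, 13.3 in P0 OCT4-GFP, 18.4 in P7 OCT4-GFP, 22.9 in P7 ID4-GFP and 17.2 in P7 VASA THY1. The Fgfrl1 level exceeded that of Fgfr1 in every column except P0, P7 and P12 THY1.

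**Figure D2:**
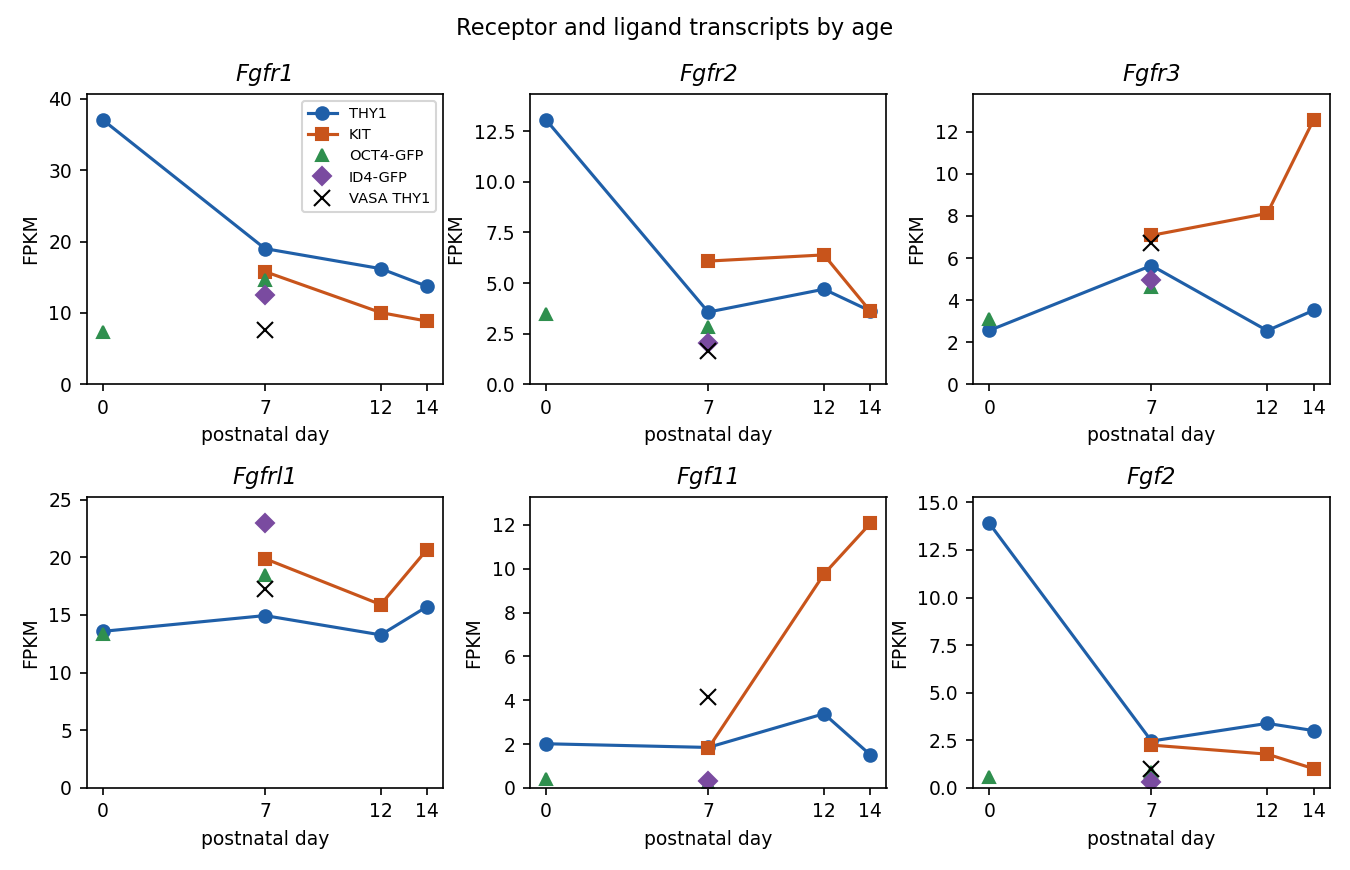
FPKM of Fgfr1, Fgfr2, Fgfr3, Fgfrl1, Fgf11 and Fgf2 against postnatal day, with THY1 columns as blue circles, KIT columns as orange squares, OCT4-GFP as green triangles, ID4-GFP as purple diamonds and VASA THY1 as crosses, and 1 value per point. Lines join columns of 1 enrichment. Fgfr3 and Fgf11 are highest in P14 KIT, at 12.6 and 12.1 FPKM, while Fgfr1, Fgfr2 and Fgf2 are highest in P0 THY1.

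Sprouty genes code for inhibitors that act on the cascade below the receptor. Spry1, Spry2 and Spry4 are in the table. Spry1 stood at 29.6 FPKM in P0 THY1, 14.8 in P7 THY1, 15.1 in P12 THY1, 10.2 in P14 THY1, 10.4 in P7 KIT, 7.56 in P12 KIT, 3.57 in P14 KIT, 18.4 in P0 OCT4-GFP, 9.15 in P7 OCT4-GFP, 6.86 in P7 ID4-GFP and 5.55 in P7 VASA THY1. Both P0 columns were the highest, and P14 KIT was the lowest.

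Spry2 was at 23.9 FPKM in P0 THY1, 16.5 in P7 THY1, 17.99 in P12 THY1, 5.89 in P14 THY1, 8.83 in P7 KIT, 7.36 in P12 KIT, 3.30 in P14 KIT, 3.33 in P0 OCT4-GFP, 3.92 in P7 OCT4-GFP, 2.39 in P7 ID4-GFP and 3.16 in P7 VASA THY1. The THY1 and KIT columns up to P12 were high and the GFP-sorted columns, P7 VASA THY1 and P14 KIT low, an order close to that of the marker sums of myoid cells (rho 0.92, r 0.94) and endothelial cells (rho 0.93, r 0.91) over the 11 columns. Without the 2 columns farthest from the middle of each marker sum, P0 THY1 with P7 ID4-GFP or with P7 KIT, r was 0.93 for both. Spry1 was closest to the macrophage marker sum (rho 0.88, r 0.86). The part of those cells in the Spry2 and Spry1 levels was not tested.

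Spry4 did not share that order. It had 10.6 FPKM in P0 THY1, 21.6 in P7 THY1, 9.81 in P12 THY1, 3.38 in P14 THY1, 6.20 in P7 KIT, 5.50 in P12 KIT, 0.765 in P14 KIT, 15.3 in P0 OCT4-GFP, 8.07 in P7 OCT4-GFP, 7.62 in P7 ID4-GFP and 2.72 in P7 VASA THY1. P7 THY1 and P0 OCT4-GFP were the high columns and P14 KIT the low one, 0.765 FPKM, the only Sprouty value below 1. Summed over the 3 Sprouty genes, the level was 64.0 FPKM in P0 THY1, 52.9 in P7 THY1, 42.9 in P12 THY1 and 19.5 in P14 THY1, and 25.4, 20.4 and 7.64 in the KIT columns at P7, P12 and P14. P0 OCT4-GFP held 37.1 FPKM, P7 OCT4-GFP 21.1, P7 ID4-GFP 16.9 and P7 VASA THY1 11.4.

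Spred proteins restrain RAS activation, Spred1 by bringing neurofibromin to the membrane. Spred1 was the most abundant of the 33 genes in every column. It stood at 55.2 FPKM in P0 THY1, 49.8 in P7 THY1, 32.4 in P12 THY1, 27.04 in P14 THY1, 40.1 in P7 KIT, 39.2 in P12 KIT, 47.2 in P14 KIT, 47.9 in P0 OCT4-GFP, 37.3 in P7 OCT4-GFP, 44.4 in P7 ID4-GFP and 28.9 in P7 VASA THY1. In THY1 cells it was lower at each later age, and in KIT cells its range was 39.2 to 47.2 FPKM.

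Spred2 had 7.56 FPKM in P0 THY1, 12.2 in P7 THY1, 8.74 in P12 THY1, 5.10 in P14 THY1, 9.30 in P7 KIT, 6.23 in P12 KIT, 4.04 in P14 KIT, 6.41 in P0 OCT4-GFP, 10.8 in P7 OCT4-GFP, 12.4 in P7 ID4-GFP and 5.05 in P7 VASA THY1. At P7 it was high in THY1, OCT4-GFP and ID4-GFP cells alike. Spred3 was low, from 0.186 FPKM in P7 VASA THY1 through a median of 0.893 to 1.80 in P7 THY1. The Spred sum at P14 was 51.5 FPKM in KIT and 32.4 in THY1, while the Sprouty sum was 7.64 in KIT and 19.5 in THY1. These sums stood in opposite order, but Spred1, at 47.2 and 27.04 FPKM, made up most of the Spred sum. Spred2 and Spred3 were lower in P14 KIT, as the Sprouty genes were, with differences of -0.28 and -0.03 on the log2 scale.

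**Figure D3:**
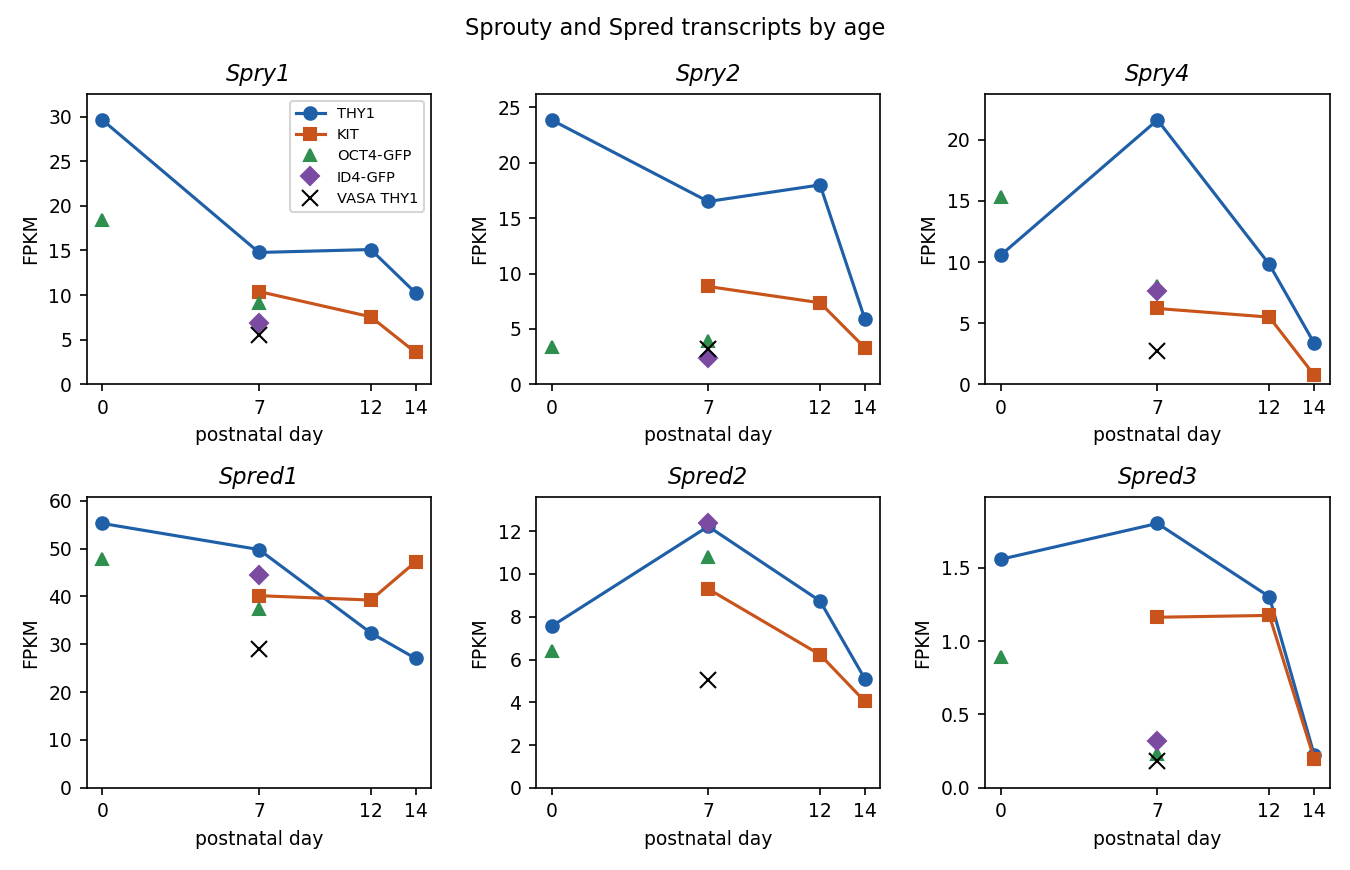
FPKM of the 3 Sprouty genes (upper row) and the 3 Spred genes (lower row) against postnatal day, with 1 value per column, symbols for THY1 (blue circles), KIT (orange squares), OCT4-GFP (green triangles), ID4-GFP (purple diamonds) and VASA THY1 (crosses). The orange squares lie below the blue circles in all 3 Sprouty panels, and at P12 and P14 above them for Spred1.

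KIT was compared with THY1 at each age to ask how the genes differ between differentiating and undifferentiated spermatogonia. At P7, 0 of the 33 genes were 2-fold higher in KIT (1.65% of all genes) and 1 was lower, Spry4 (2.06% of all genes). At P12 Fgf11 and Fgfr3, 2 genes, were higher (2.7% of all genes) and Spry2, 1 gene, was lower (3.82%). At P14, 3 genes were higher, Fgf11, Fgf13 and Fgfr3 (4.61%), and 2 were lower, Spry1 and Spry4 (9.34%). The medians over the 33 genes were -0.12, 0.01 and 0.00 at P7, P12 and P14, beside 0.00 over all genes at each age. With values quantile-normalized, which moved the median of expressed genes by 0.11 at P14, the P14 counts were 3 higher and 1 lower, Spry1.

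Direction was more regular than size for the Sprouty genes. Spry1 differed between KIT and THY1 by -0.47, -0.91 and -1.30 at P7, P12 and P14, Spry2 by -0.83, -1.18 and -0.68, and Spry4 by -1.65, -0.73 and -1.31. All 3 were lower in KIT at all 3 ages, as were 3930 of the 20889 genes. With the P7 VASA THY1 column in place of P7 THY1 none of the 3 was, because at P7 the differences were 0.80 for Spry1, 1.24 for Spry2 and 0.95 for Spry4. The P7 part of the result thus rests on the P7 THY1 column. Among the 33 genes 11 were lower and 7 higher in KIT at all 3 ages with P7 THY1 as the reference. Of all 20889 genes, 3930 were lower and 3729 higher in that way. With P7 VASA THY1 as the reference 1 member was lower (Fgf12) and 9 were higher. The matching count over all genes was not made.

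Marker sums moved with these columns. Myoid markers summed to 160 FPKM in P7 THY1 and 71.8 in P7 KIT, 295 and 69.3 at P12, and 84.5 and 16.1 at P14. Macrophage markers summed to 40.2 and 20.8 FPKM at P7, 68.1 and 13.5 at P12, and 47.6 and 3.29 at P14. Leydig cell markers went the other way, at 127 and 1136 FPKM at P7, 92.8 and 228 at P12, and 158 and 591 at P14. Stroma markers summed to 1403 FPKM in P14 THY1 and 369 in P14 KIT, with 10 of 10 lower, and Sertoli cell markers to 1373 in P12 THY1 and 555 in P12 KIT, with 8 of 11 lower. Endothelial markers, whose order Spry2 followed, summed to 130 and 155 FPKM at P7, 80.5 and 48.5 at P12, and 26.5 and 7.25 at P14. P7 VASA THY1 held 8.36 FPKM of endothelial, 44.6 of myoid, 5.24 of macrophage and 910 of Sertoli cell markers. The part of these cells in the Sprouty differences was not tested.

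Fgf11 and Fgfr3 differed upward. For Fgf11 KIT minus THY1 was -0.02 at P7, 1.30 at P12 and 2.38 at P14. For Fgfr3 it was 0.28, 1.36 and 1.59. With P7 VASA THY1 as the P7 reference these P7 differences were -0.87 and 0.06. Of the other receptors, Fgfr1 was lower in KIT by less than 2-fold, with differences of -0.25, -0.64 and -0.58, and Fgfr2 was at 0.63, 0.38 and 0.00. Against P7 VASA THY1 the P7 difference of Fgfr1 was 0.96, in the opposite direction. That of Fgfr2 was 1.43, past the 2-fold step. Fgf13 differed by 0.73, 0.23 and 1.07, and Spred1 by -0.30, 0.27 and 0.78. Fgf2 stood just short of the 2-fold step at P14, at -0.997.

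**Figure D4:**
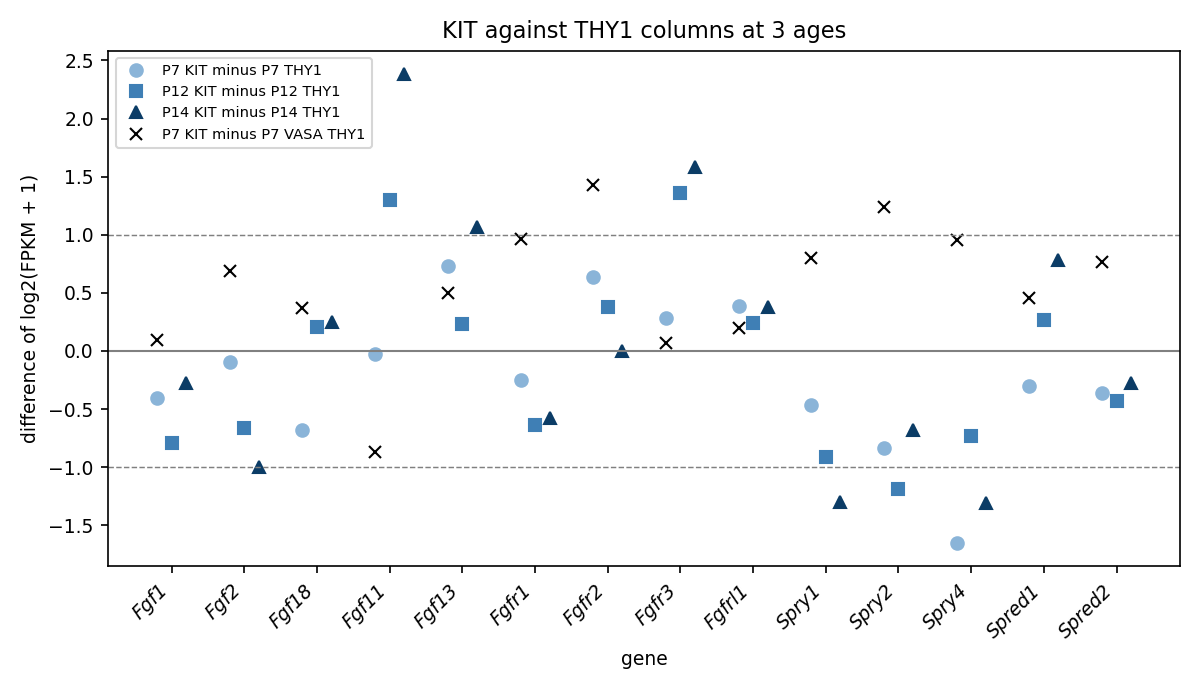
Difference of log2(FPKM + 1) between KIT and THY1 columns at P7 (circles), P12 (squares) and P14 (triangles) for the 14 members that reached 5 FPKM, with crosses for P7 KIT minus P7 VASA THY1 and dashed lines at the 2-fold step. The 3 Sprouty genes lie below 0 at all ages against THY1 and above 0 against P7 VASA THY1, and Fgf11 at P14 is the highest point, at 2.38.

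Successive ages were compared within each enrichment to follow the genes over postnatal development. These comparisons share columns, P7 and P12 each entering more than 1, so their values are not independent. In THY1 cells from P0 to P7, 1 of the 33 genes was 2-fold higher, Fgf22 (3.77% of all genes), and 6 were lower, Fgf1, Fgf2, Fgf7, Fgf10, Fgf12 and Fgfr2 (13.7% of all genes). The median of the 33 was -0.12, beside -0.06 over all genes. With quantile normalization, which moved the median of expressed genes by 0.21 in this comparison, 5 were higher and 5 lower. Fgf17, Fgfr3, Spred2 and Spry4 then joined Fgf22, while Fgf7, Fgf10 and Fgf12 dropped out of the lower genes and Fgfr1 and Spry1 came in. The 4 ligands of the 6 lower genes stood at 9.80 to 0.424 FPKM for Fgf1, 13.9 to 2.46 for Fgf2, 2.03 to 0.409 for Fgf7 and 1.51 to 0.106 for Fgf10. Stroma markers were lower as well, at 330 FPKM in P7 THY1 beside 6953 in P0 THY1, with 10 of 10 markers 2-fold lower, and their part was not tested.

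From P7 to P12 in THY1 cells 0 genes were higher (3.81% of all genes) and 1 was lower, Spry4 (1.69%), with a difference of -1.07. From P12 to P14, 0 were higher (8.88%) and 2 were lower, Spry2 and Spry4 (10.5%), by -1.46 and -1.30. Between these columns 11 of 11 Sertoli cell markers and 6 of 8 endothelial markers were 2-fold lower, and 7 of 10 stroma markers higher, and their part was not tested. For Spry4, P12 minus P7 was 1.54 when P7 VASA THY1 stood in for P7 THY1.

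In KIT cells from P7 to P12, 1 gene was higher, Fgf11 (3.46%), by 1.94, and 0 were lower (2.36%). From P12 to P14, 0 were higher (2.92%) and 1 was lower, Spry4 (7.56%), by -1.88. Spry1 and Spry2 differed by -0.91 and -0.96 over the same step. With quantile normalization, a shift of 0.13 in the median of expressed genes, Fgf22 was counted as higher in this step. From P7 to P12, 7 of 8 Leydig and 6 of 8 endothelial markers were 2-fold lower in KIT cells. From P12 to P14, 10 of 11 Sertoli, 7 of 8 endothelial, 5 of 8 myoid and 4 of 8 macrophage markers were lower, and 4 of 8 Leydig markers higher. The part of these cells was not tested.

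In OCT4-GFP cells from P0 to P7, 2 genes were higher, Fgf13 and Fgf22 (1.43% of all genes), and 1 was lower, Fgf3 (2.09%). Their levels were 1.45 and 4.07 FPKM for Fgf13, 0.228 and 3.57 for Fgf22, and 3.02 and 0.571 for Fgf3. None of the 3 reached 5 FPKM. Macrophage markers were at 292 and 200 FPKM in the same columns, and their part was not tested. Both Spry1 and Spry4 were lower at P7 by less than 2-fold, with differences of -0.94 and -0.85, and Fgfr1 was higher by 0.91.

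At P0 the OCT4-GFP sort was set against the THY1 beads. Of the 33 genes 1 was 2-fold higher in OCT4-GFP cells, Fgf3 (8.17% of all genes), and 10 were lower (16.4% of all genes). The 10 were the ligands Fgf1, Fgf2, Fgf7, Fgf10 and Fgf18, the homologous factors Fgf11 and Fgf12, the receptors Fgfr1 and Fgfr2, and Spry2. Fgf1 differed by -3.26, Fgf2 by -3.22, Spry2 by -2.52, Fgfr1 by -2.19 and Fgfr2 by -1.65. The median over the 33 genes was -0.43, beside -0.05 over all genes. Spry4 was higher in OCT4-GFP by 0.50, and Spry1 was lower by less than 2-fold, at -0.66. Under quantile normalization, which moved the median of expressed genes by 0.24 here, 2 genes were higher, Fgf3 and Fgfr3, and 5 lower, Fgf1, Fgf2, Fgfr1, Fgfr2 and Spry2. Stroma markers summed to 63.2 FPKM in OCT4-GFP and 6953 in THY1 cells, and myoid markers to 21.1 and 1054, and their part in the lower genes was not tested.

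At P7 ID4-GFP cells were compared with THY1 cells. None of the genes was 2-fold higher (4.72% of all genes) and 8 were lower, Fgf2, Fgf11, Fgf17, Fgf18, Spred3, Spry1, Spry2 and Spry4 (10.1% of all genes). Spry2 differed by -2.37, Fgf2 by -1.41, Spry4 by -1.39 and Spry1 by -1.01. The median over the 33 genes was -0.23, beside 0.00 over all genes. Under quantile normalization Fgf2, Spry2 and Spry4, 3 genes, were lower and none was higher. Against P7 VASA THY1 the difference was 0.26 for Spry1 and 1.21 for Spry4, in the opposite direction, and -0.30 for Spry2, in the same direction. Myoid markers summed to 7.76 FPKM in ID4-GFP and 160 in THY1 cells, and Sertoli cell markers to 20.8 and 673, and their part was not tested.

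The other genes of the pathway were read from 4 lists. Adaptors and kinases of the RAS and ERK cascade had 20 genes in the table. Between KIT and THY1, 0 of them were past the 2-fold step in either direction at P7 and at P12. At P14, 1 was lower, the adaptor Frs3, at 8.84 FPKM in KIT and 29.5 in THY1. P14 THY1 was the column that stood apart, as Frs3 ranged from 3.80 to 8.84 FPKM in all the others. In THY1 cells from P12 to P14, 4 of these 20 were lower and 1 higher. The higher gene was Frs3, at 4.32 and 29.5 FPKM. Among the lower genes were the RAS activators Sos1, at 22.1 and 5.41 FPKM, and Sos2, at 21.3 and 4.67.

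Heparan sulphate is the sugar partner of FGF and receptor, and its list of carriers and enzymes holds 15 genes. Between KIT and THY1, 0 were higher and 1 was lower at P7, 0 and 2 at P12, and 1 and 3 at P14. The carrier Sdc4 was lower in KIT each time, at 198 beside 546 FPKM at P7, 194 beside 537 at P12, and 23.8 beside 122 at P14. From P0 to P7 in THY1 cells 8 of the 15 were lower and 1 was higher, with Sulf1, which trims heparan sulphate, at 55.9 and 2.57 FPKM, and the carrier Gpc3 at 340 and 21.96. The list of 7 co-receptors and FGF-binding proteins had 0 genes past the step at P7, 1 lower at P12 (Flrt2) and 0 at P14 between KIT and THY1.

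Genes known as targets or feedback regulators of ERK, 15 in the table, were read in the same way. At P7, 6 were 2-fold lower in KIT than in THY1 and 1 was higher, at P12 4 were lower and 0 higher, and at P14 7 were lower and 1 higher. The list medians were -0.75, -0.75 and -0.98. Etv5, an ETS factor of spermatogonial stem cells, stood at 7.16 FPKM in P7 KIT beside 20.2 in P7 THY1, and at 3.10 beside 10.97 at P14. Its relative Etv4 was at 5.18 beside 15.0 FPKM at P7. Dusp6, the phosphatase that acts on ERK, was at 26.5 beside 60.6 FPKM at P12 and 3.84 beside 19.9 at P14. The gene higher at P7 and P14 was Ccnd1, a cyclin of the G1 phase, at 42.9 beside 17.4 FPKM and 51.8 beside 18.8.

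The reference at P7 mattered here too. Against P7 VASA THY1, 6 of the 15 were higher in P7 KIT and 1, Etv5, was lower, with a list median of 0.24. Of 10 genes lower in KIT at all 3 ages with P7 THY1, 5 were so with P7 VASA THY1: Etv4, Etv5, Il17rd, Fos and Bcl6b. The difference at P7 against VASA THY1 was -1.01 for Etv5 and -0.72 for Etv4, while it was 2.77 for Myc and 2.25 for Ier3.

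**Figure D5:**
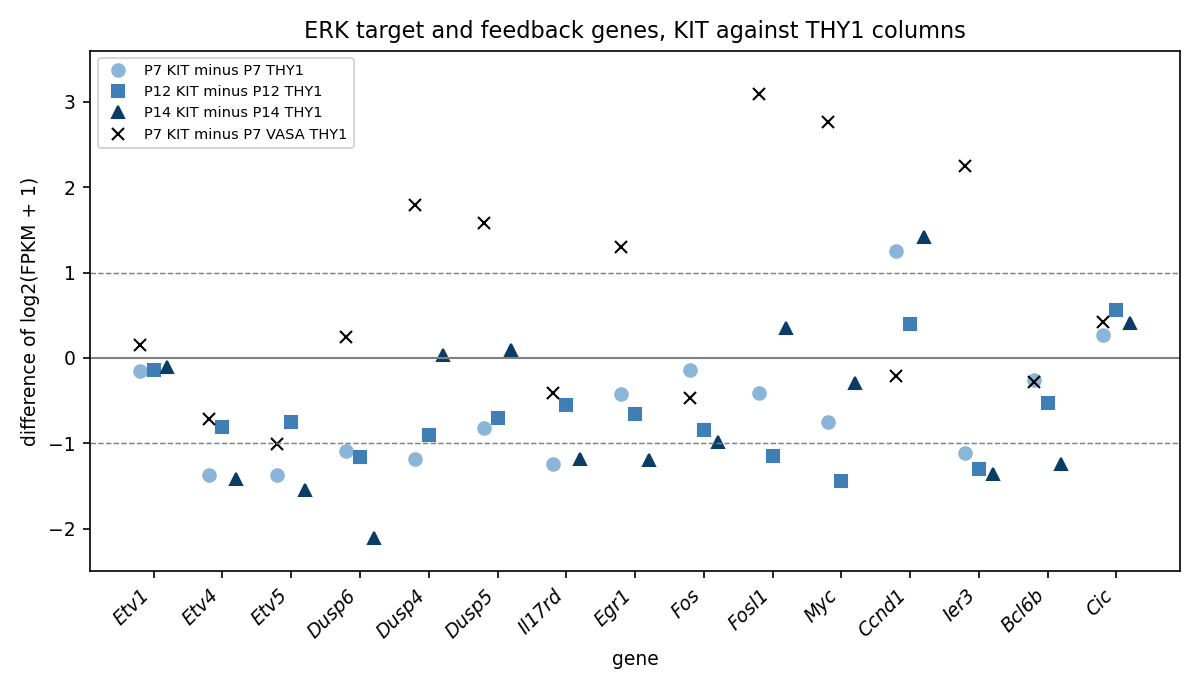
Difference of log2(FPKM + 1) between KIT and THY1 columns for the 15 ERK target and feedback genes at P7 (circles), P12 (squares) and P14 (triangles), with crosses for P7 KIT minus P7 VASA THY1 and dashed lines at the 2-fold step. Etv4 and Etv5 lie below 0 against both references, and Fosl1, Myc and Ier3 are among the 6 that lie above 1 against P7 VASA THY1.

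In OCT4-GFP cells from P0 to P7, 4 of the 15 were lower and 0 higher, with Etv4 at 92.7 and 28.3 FPKM, Bcl6b at 62.6 and 20.4, and Dusp6 at 103 and 47.9. Against P0 THY1, the genes 2-fold higher in P0 OCT4-GFP included Etv4, at 92.7 beside 13.9 FPKM, Etv5, at 55.7 beside 14.8, and Bcl6b, at 62.6 beside 9.86, named after their values were seen. In that comparison 5 of the 15 were 2-fold higher and 7 lower, with Fos, an immediate early gene, at 55.8 beside 738 FPKM, and Myc at 0.681 beside 19.99. In ID4-GFP against THY1 cells at P7, 3 were higher and 8 lower. In KIT cells from P12 to P14, 10 were lower and 1 higher, with Dusp6 at 26.5 and 3.84 FPKM, and in THY1 cells over the same ages 6 were lower and 0 higher.

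Position in the genome gave a further description. Fgf2 and Spry1 lie on the same chromosome with Nudt6 and Spata5 between them in the RefSeq order of GRCm38.p6, used here for order only. Fgf1 and Spry4 are close neighbours as well, with Arhgap26 and Gm19774 between them. Fgf2 and Spry1 had their highest level in the same column, P0 THY1, while Fgf1 was highest there and Spry4 in P7 THY1. Fgf2 overlaps Nudt6, Fgf1 overlaps Arhgap26 and Gm5820, Fgf7 overlaps Fam227b, Fgf14 overlaps Itgbl1 and Spred3 overlaps Ggn. Fgf12, Fgf13, Fgf15, Fgf17 and Fgfr1 overlap annotated noncoding genes or pseudogenes only, and Fgf2 also overlaps the noncoding Fgf2os. Whether strand was used in counting is not given in the sources used here. The levels of all these members are thus uncertain by what their partners add.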

How the data were processed

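Total RNA, depleted of ribosomal RNA, was made into directional libraries, per the labels' protocols. Per the submitters' processing notes, CASAVA, TopHat2 2.0.9 and Cufflinks 2.1.1 were used, with the mouse build mm9. The annotation and the use of strand in counting are not given in the sources used here. The authors deposited FPKM, 1 value per gene and group, for 16 RNA libraries in 11 columns. How libraries of a group were combined is not stated. The other 14 samples, bisulfite and chromatin libraries, are not analysed here. FPKM hold no counts, so the depth per sample is unknown and no interval could be given.

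From the deposited values log2(FPKM + 1) was computed in Python 3.11.15 (scipy 1.17.1, pandas 2.3.3, numpy 2.4.6, with matplotlib 3.10.9 for figures). A difference of 1 or more was counted over all 20889 genes, with no filter. The counting was tested on simulated data. Alternatives were a pseudocount of 0.1, a filter of 1 FPKM in 2 columns (14200 genes), quantile normalization, a floor of 5 FPKM, and P7 VASA THY1 in place of P7 THY1.

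The members, gene lists and marker lists were chosen with earlier results of these data known. All members are given, with every column for those reaching 10 FPKM, and the lowest, median and highest value for those from 1 to 10. For a pathway list and comparison, genes were named from the 3 largest differences with 5 FPKM or more in the higher column. Not all of these are named, and those named are not always the largest. Other genes of these lists were named after their values were seen. All 33 symbols matched the gene table. Motifs were searched in promoter windows on both strands: CCGGAA (ETS), GCGTGGGCG or GCGGGGGCG (EGR), GGGCGG (GC box), and TGACGTCA (CRE, in 1.79% of windows), CACGTG (E-box, 7.15%) and AGGTCA (nuclear receptor motif, 16.3%).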

Additional observations from a re-analysis of the deposited data

How the results depend on the processing

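No paired analysis was possible because the table holds 1 value per group, and for the same reason leaving out each replicate in turn was not run. Counts stayed within 1.5 times of the reported ones in 24 of 53 alternatives. The share of all genes past the 2-fold step was not computed under any alternative, here or in the sections above. Whether a changed count is particular to the members is therefore not known. With a pseudocount of 0.1 FPKM, under which differences of low genes come out larger, the number of members past 2-fold was 5 instead of 1 for P7 KIT minus THY1, 11 instead of 5 at P14, 14 instead of 7 for P7 minus P0 THY1, 7 instead of 1 for P12 minus P7 THY1, 11 instead of 2 for P14 minus P12 THY1, 5 instead of 1 and 9 instead of 1 for the KIT steps, 8 instead of 3 for OCT4-GFP, 19 instead of 11 for P0 OCT4-GFP minus THY1, and 14 instead of 8 for ID4-GFP minus THY1. The filter of 1 FPKM in 2 columns gave 3 for P7 minus P0 THY1 and 6 for P0 OCT4-GFP minus THY1, since it tests fewer genes, and a floor of 5 FPKM gave 3 and 6, with 0 for OCT4-GFP over time and 3 for ID4-GFP minus THY1. Quantile normalization gave 3 for P12 minus P7 THY1, 2 for P14 minus P12 KIT, 7 for P0 OCT4-GFP minus THY1 and 3 for ID4-GFP minus THY1, and the cause was not tested.

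Where P7 VASA THY1 replaced P7 THY1, 2 members, Fgfr2 and Spry2, were counted for P7 KIT, both higher. The counts were 16 for P7 minus P0, 7 for P12 minus P7 and 3 for ID4-GFP. The direction reversed, with the difference past the step before or after, for Spry2 (1.24) and Spry4 (0.95) in P7 KIT, Spry4 in P7 minus P0 (-1.64) and P12 minus P7 (1.54), and Spry1 (0.26) and Spry4 (1.21) in ID4-GFP. The cause was not tested. Among 496 alternatives for single members the sign changed in 26, namely these 6 and 20 in which neither difference passed the step. Of the 20, 13 came with P7 VASA THY1 (Spry1 in P7 KIT at 0.80 among them) and 7 with quantile normalization. The filter (121 of the 496) and the floor (89) leave a single gene's difference unchanged, and the pseudocount (121) cannot change its sign. With P7 VASA THY1 the sign changed in 19 and was kept in 25. With quantile normalization it changed in 7 and was kept in 114. Across the 496, 26 differences came to pass the step in the same direction and 6 no longer passed it. In alternatives chosen after seeing the data, members highest in a THY1 column were 9 of 20 without P0 THY1 instead of 18 of 26. Of all genes, 25.1%, 5.27%, 8.74% and 14% were highest in the P0, P7, P12 and P14 THY1 columns. Without P0 THY1 the shares were 9.08%, 13.8% and 17.6% at P7, P12 and P14. With P7 VASA THY1 as reference, members lower in KIT at all 3 ages were 1 instead of 11, Sprouty genes 0 instead of 3, ERK genes 5 instead of 10, and ERK genes 2-fold lower in P7 KIT 1 instead of 6.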
